A study of Mus musculus with 62 samples.

Results

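Aquaporins are membrane channels that let water follow osmotic gradients, and a branch of the family, the aquaglyceroporins, also passes glycerol and other small uncharged solutes. In the male tract the fluid that carries sperm out of the testis is largely taken back up in the efferent ducts and epididymis, and sperm themselves use water channels to adjust their volume when the surrounding osmolality changes. Principal cells, the main epithelial cells of the epididymis, depend on androgen and are known to carry Aqp9 on their luminal surface. The 9 genes described here, Aqp1, Aqp2, Aqp3, Aqp4, Aqp5, Aqp7, Aqp8, Aqp9 and Aqp11, were chosen by their symbol among the 23845 genes of the expression table, and all 9 were found in it.

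The table holds 62 polyA-selected RNA libraries, each from 1 male mouse of 8 to 14 weeks. They sample the testis, the caput of the epididymis (the segment that sperm enter from the testis) and its cauda (the segment where sperm are stored). SPF mice were C57BL/6 animals with a conventional microbiota free of specified pathogens, with 3 testis, 4 caput and 4 cauda libraries. GF mice were C57BL/6 animals kept without microbes in sterile isolators (4 testis, 6 caput and 6 cauda libraries), and GF × SPF F1 mice were offspring of a GF father and an SPF mother (per the study's text), born and raised in a conventional facility (3 caput and 3 cauda). Rag2-/- mice, which lack mature T and B cells, gave 2 caput and 3 cauda libraries. Recolonized GF mice, descended from GF animals and bred conventionally, gave 3 libraries of each tissue and were compared with a second set of SPF libraries, 5 of each tissue. Per the study's methods, SPF mice derived from a commercial supplier, GF mice came from a gnotobiotic core and recolonized GF mice from another laboratory. In comparisons of GF or recolonized GF mice with SPF mice, colony of origin cannot be told apart from the microbiota or its history. The cauda of GF replicate 4 was left out of every comparison because it came from a swollen epididymis. Its swelling is given in the study's text and not in its label. Which caput and cauda libraries came from the same animal is not given in the labels, so tissues were compared as separate samples.

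Levels are in TPM, a share of each library's transcripts corrected for transcript length, which allows levels of different genes to be set side by side. The tissues matched their labels: the summed level of 5 caput epithelial transcripts (Lcn8, Lcn9, Adam28, Cst11 and Gpx5) was at least 63600 TPM in every caput library and at most 299 TPM in the compared cauda libraries, and that of 7 spermatid and sperm transcripts was at least 55790 TPM in every testis. Between 13105 and 18822 genes were above 0 TPM in a library. Rag2 itself was listed at 0 in every epididymal library of every group, so it does not check the Rag2-/- label there. Differences are given as log2 fold changes on log2(TPM + 1) with moderated standard errors, an expression that understates the change of genes near or below 1 TPM. A gene was called when its adjusted p from limma was at most 0.05 and its fold at least 1.5, and genes averaging under 1 TPM in a comparison were not tested in it.

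Promoter windows are shown for 4 genes because the results turn on where they were high: Aqp11 and Aqp7, the first and second by level in testis, Aqp1 and Aqp9, which overlapped as the highest in caput, and Aqp9 as the highest in cauda. Each runs from 250 bases before to 50 bases after an annotated start of the gene (RefSeq, GRCm38.p6), 5′ to 3′ on the gene's own strand, and capitals mark the androgen receptor half-site AGAACA, read on both strands, or the CRE half-site TGACG, likewise on both strands, a piece of the element bound by CREB and by the germ cell factor CREM. The Aqp9 window lies at chr9:71163240-71163539 on the minus strand, that of Aqp1 at chr6:55336049-55336348 on the plus strand, that of Aqp11 at chr7:97738198-97738497 on the minus strand and that of Aqp7 at chr4:41048087-41048386 on the minus strand.
Aqp9: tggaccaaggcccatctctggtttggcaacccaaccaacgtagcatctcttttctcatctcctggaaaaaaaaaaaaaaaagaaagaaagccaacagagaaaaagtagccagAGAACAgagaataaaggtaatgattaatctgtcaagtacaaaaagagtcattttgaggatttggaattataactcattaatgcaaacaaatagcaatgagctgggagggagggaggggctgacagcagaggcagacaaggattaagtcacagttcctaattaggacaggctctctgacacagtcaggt
Aqp1: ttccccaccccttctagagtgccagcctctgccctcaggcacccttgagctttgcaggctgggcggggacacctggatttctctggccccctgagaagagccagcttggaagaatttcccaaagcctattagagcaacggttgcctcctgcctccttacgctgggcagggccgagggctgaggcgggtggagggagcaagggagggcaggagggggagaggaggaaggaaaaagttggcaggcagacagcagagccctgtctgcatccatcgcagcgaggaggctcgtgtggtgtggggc
Aqp11: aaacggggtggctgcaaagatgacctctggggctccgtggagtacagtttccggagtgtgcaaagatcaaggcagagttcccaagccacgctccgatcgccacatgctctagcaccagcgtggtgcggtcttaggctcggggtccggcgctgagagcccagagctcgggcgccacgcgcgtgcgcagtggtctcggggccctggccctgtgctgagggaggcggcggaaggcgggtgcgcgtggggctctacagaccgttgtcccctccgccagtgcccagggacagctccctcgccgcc
Aqp7: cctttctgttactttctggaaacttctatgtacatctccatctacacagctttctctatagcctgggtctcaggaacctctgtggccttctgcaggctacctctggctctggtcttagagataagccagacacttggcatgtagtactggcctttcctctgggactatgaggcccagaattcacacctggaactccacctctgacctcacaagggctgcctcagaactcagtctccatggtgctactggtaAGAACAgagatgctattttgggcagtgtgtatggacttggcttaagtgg

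The Aqp9 window held 1 androgen receptor half-site before the annotated start it was taken from, and the Aqp7 window held 1 within the bases after its start. This Aqp9 window lies inside the annotated gene (chr9:71110659-71167849), not at its outermost start. The start used for the Aqp7 window also lies inside its annotated gene, although that window reaches past the gene's outer end. Both genes have a further annotated start: from that of Aqp7 the same half-site lies upstream, at position -173, and the window of that of Aqp9 holds neither motif. The windows of Aqp1 and Aqp11 held neither motif. The androgen half-site occurred in 19.0% of the 32851 promoter windows in the reference and the CRE half-site in 20.8%, so both are common at this length. Aqp2 was the only other aquaporin among the 8 with a window in the reference to hold either, with 1 of each. Base composition ranged more widely, from 41.3% G and C in this Aqp9 window to 68.0% in that of Aqp11 and 79.7% in that of Aqp5. Aqp2 (chr15:99579056-99584545) and Aqp5 (chr15:99591028-99594829) lie 6482 bases apart, and Aqp7 (chr4:41033074-41048237) and Aqp3 (chr4:41092724-41098183) lie 44486 bases apart. Aqp2 and Aqp5 both averaged highest in testis, at different levels. Aqp7 was among the leading testis aquaporins, whereas Aqp3 stayed at or below 1.23 TPM in every library.

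The first question was where each channel is expressed in SPF mice. The leading aquaporin differed between testis and cauda. Aqp11 led in testis, Aqp9 led in cauda, and Aqp1 and Aqp9 were close to each other in caput. The summed level of the 9 genes was 739.6 ± 8.36 TPM in testis (SD, n = 3), 110.1 ± 10.6 TPM in caput (n = 4) and 195 ± 13.5 TPM in cauda (n = 4), and in the second SPF set 1035 ± 19.4, 109.8 ± 8.28 and 207 ± 10.8 TPM (n = 5 each). Aqp11 made up 64.5% ± 1.67 of the testis sum, Aqp1 and Aqp9 made up 45.1% ± 5.48 and 38.6% ± 4.55 of the caput sum, and Aqp9 made up 69.8% ± 5.61 of the cauda sum in the first set.

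**Figure D1:**
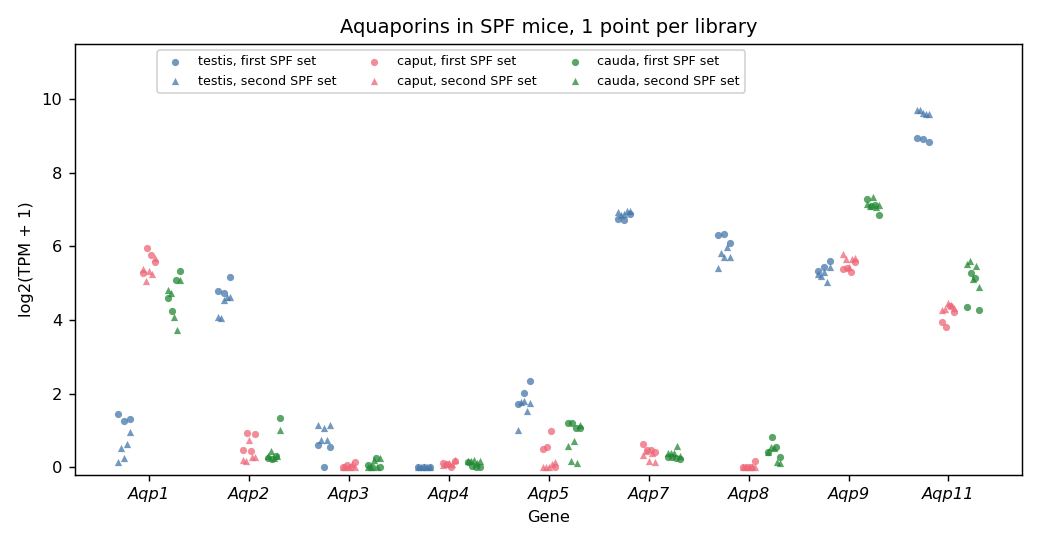
Level of each aquaporin in the SPF libraries. The vertical axis is log2(TPM + 1), the horizontal axis lists the genes, each point is 1 library, colours mark tissues, and circles and triangles mark the first and second SPF sets. Aqp2, Aqp7 and Aqp8 sit high only in testis, Aqp1 is low there, and Aqp9 is highest in cauda.

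**Figure D2:**
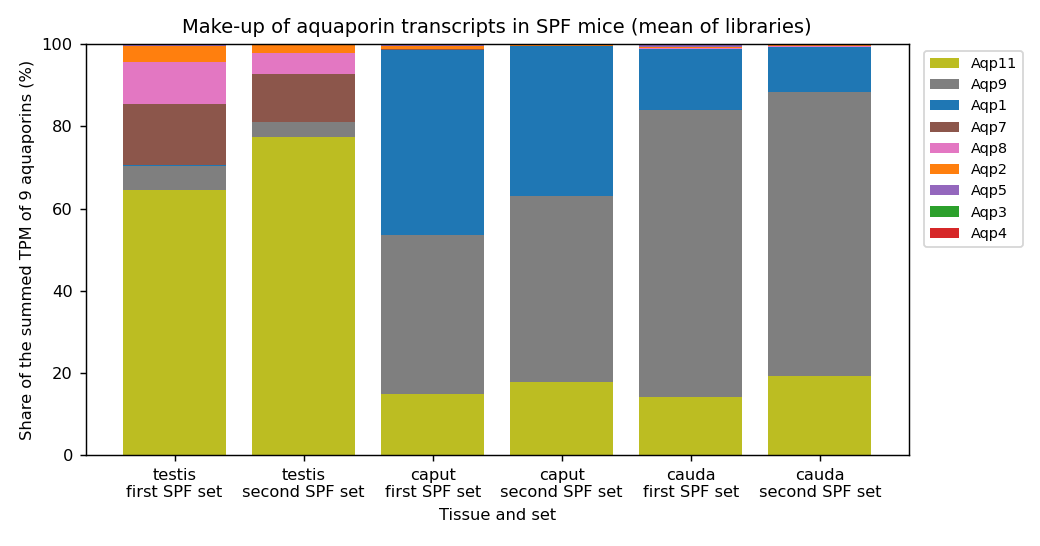
Share of each gene in the summed TPM of the 9 aquaporins, as the mean over the libraries of each SPF set and tissue, in percent. Aqp11 is the largest share in testis (64.5% and 77.4%) and Aqp9 in cauda (69.8% and 69.1%).

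Testis expressed the widest range of channels. Aqp11, an intracellular aquaporin found in the membrane of the endoplasmic reticulum, read 491, 483 and 458 TPM in the 3 SPF testes and 839, 830.3, 789, 776 and 771 TPM in the second set. Aqp7, an aquaglyceroporin known from fat and from spermatids, read 107, 105 and 116 TPM, and from 115 to 124 TPM in the second set. Every Aqp11 value was above every Aqp7 value, by 4.37-fold on the means of the first set.

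Aqp8, a water channel also found on sperm, read 79.1, 79.6 and 67.9 TPM in the SPF testes. Aqp9, an aquaglyceroporin, read 39.3, 42.5 and 47.7 TPM there. Aqp2, known as the vasopressin-regulated channel of the kidney collecting duct, read 26.9, 25.7 and 35.4 TPM. The order Aqp11, Aqp7, Aqp8, Aqp9, Aqp2, Aqp5, Aqp1 held in the first set without overlap between any neighbours, and in the second set only Aqp8 and Aqp9 overlapped among the first 5.

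Below these, Aqp5, a channel of secretory glands, read 2.28, 3.07 and 4.13 TPM in SPF testis, and Aqp1 1.71, 1.38 and 1.48 TPM. Aqp3, a basolateral channel of the collecting duct and of skin, was at most 0.53 TPM in these 3 testes and between 0.69 and 1.23 TPM in the second set. Aqp4, the channel of astrocyte end-feet, was listed at 0 in all 15 testis libraries of the series and was at most 0.29 TPM in any compared epididymal library. Aqp3 and Aqp4 are therefore described by these values alone.

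In caput, Aqp1, the constitutively open water channel known from endothelium, red cells and the efferent ducts, read 37.9, 61.5, 53.7 and 46.5 TPM. Aqp9 read 40.8, 41.9, 39.0 and 47.2 TPM, within the range of Aqp1. Aqp11 read 14.4, 13.2, 19.95 and 17.6 TPM and lay below both without overlap. In the second set the means of Aqp9 (49.5 ± 4.33 TPM) and Aqp1 (40.1 ± 6.89 TPM, n = 5) stood in the opposite order, again with overlapping ranges. The other 6 genes were at most 1.28 TPM in any of the 23 caput libraries, and Aqp8 was listed at 0 in 20 of them.

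In cauda, Aqp9 read 156, 135, 137 and 115 TPM. Aqp1 read 23.3, 18.1, 33.4 and 39.6 TPM, and Aqp11 19.3, 38.2, 34.5 and 18.4 TPM. Aqp9 thus exceeded every other aquaporin in each library, by 4.76-fold over Aqp1 on the means, while Aqp1 and Aqp11 overlapped. Aqp5 was next, at 1.29, 1.31, 1.11 and 1.09 TPM, and the remaining genes were at most 1.54 TPM in these 4 libraries.

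Cauda was compared with caput within each SPF set. Of the 3 aquaporins that passed the level filter, Aqp1, Aqp9 and Aqp11, 2 were called in the first set and 3 in the second, where 39.4% and 50.3% of all tested genes were called. Aqp9 was higher in cauda, by 3.23-fold on the means (log2 fold change 1.66 ± 0.13 SE, limma adjusted p = 6.17e-06) and 2.89-fold in the second set (1.51 ± 0.09, adjusted p = 2.03e-08), with no overlap in either, as for 47.2% and 60% of all tested genes. Aqp1 was lower in cauda in both sets (log2 fold changes -0.82 ± 0.25, adjusted p = 0.0226, and -0.86 ± 0.23, adjusted p = 0.00519), although the ranges of the 2 segments overlapped. In the first set that call was lost without SPF caput replicate 2 or 3 or SPF cauda replicate 1 or 2, with adjusted p from 0.0511 to 0.0658. Aqp11 was called higher in cauda in the second set (0.96 ± 0.13, adjusted p = 3.58e-05) and just missed the threshold in the first (0.67 ± 0.26, adjusted p = 0.0551), where it was called without SPF cauda replicate 1 (0.81) or 4 (0.84).

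The 4 SPF cauda libraries differed in Aqp11 and, in the same order, in their spermatid and sperm transcripts. The summed level of Prm1, Prm2, Tnp1, Tnp2, Acrv1, Odf1 and Akap4 was 249.6, 1446, 739 and 33.9 TPM in replicates 1 to 4, against Aqp11 values of 19.3, 38.2, 34.5 and 18.4 TPM. Replicates 1 and 4 were thus the lowest in both. Other lists differed among these libraries as well. The measured macrophage transcripts summed to 214.5, 105.1, 205.2 and 242.1 TPM in replicates 1 to 4, the inverse order of Aqp11. Red cell transcripts summed to 142.3, 41.3, 95.4 and 123.4 TPM, lowest in replicate 2, where Aqp11 was highest. The part of sperm and germ cell RNA, or of any other cell type, in the Aqp11 level of cauda was not tested. In bulk tissue, fewer cells of a type and less RNA per cell cannot be told apart.

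Testis was compared with each segment in the same way. Of the 7 aquaporins that passed the filter, 6 were called between testis and caput in each set and 7 between testis and cauda in each set, but 80.2% and 79.4% of all tested genes were called between testis and caput and 77.5% and 78.7% between testis and cauda. Aqp2, Aqp7 and Aqp8, and Aqp5 in all but the first testis to cauda comparison, passed the filter only through testis and so had to differ. Their values outside testis were at most 1.78 TPM for Aqp2, 1.34 TPM for Aqp7 and 0.77 TPM for Aqp8 in any compared epididymal library. Aqp11 was 29.4-fold higher in testis than in caput on the means and 17.3-fold higher than in cauda (log2 fold changes 4.81 ± 0.14 and 4.14 ± 0.27, adjusted p = 7.68e-10 and 1.94e-06).

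Aqp1 moved the other way, with log2 fold changes of testis of -4.32 ± 0.16 against caput (adjusted p = 3.53e-09) and -3.49 ± 0.26 against cauda (adjusted p = 3.8e-06). Aqp9 in testis was close to caput in the first set (0.03 ± 0.11, 95% interval -0.21 to 0.27) and lower than in cauda (-1.63 ± 0.14, adjusted p = 9.52e-06). In the second set testis was lower than caput in Aqp9 (-0.41 ± 0.09, adjusted p = 0.000738), under the fold needed for a call. The median of all tested genes was itself 0.78 higher in testis than in caput and 0.69 higher than in cauda in the first set (0.43 and 0.50 in the second), and scaling by median-of-ratios size factors put the Aqp9 difference between testis and caput at -0.58 and -0.62, the second of which was then a call. Aqp5, at most 5.07 TPM anywhere, was called higher in testis than in cauda (0.90 ± 0.16, adjusted p = 0.00101), and after that scaling its difference of 0.54 was no longer a call.

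The genes whose levels followed each aquaporin most closely were listed by Pearson's r of log2(TPM + 1) over all libraries of the tissue where it was highest, as a description of libraries that share sets and scaling. For Aqp11 these were Spata18 (r = 0.99), 1700013G24Rik (r = 0.99) and Acrbp (r = 0.99), the last encoding the acrosin-binding protein of the acrosome, over 15 testis libraries. The SPF and GF testes formed a group in Aqp11 apart from the testes of the second SPF set and recolonized GF mice, so r was also taken within each. For Spata18 it was 0.95 over the 7 SPF and GF testes and 0.89 over the other 8, for 1700013G24Rik 0.91 and 0.88, and for Acrbp 0.87 and 0.69. For Aqp9 in cauda they were Hmgb3 (0.89), Mdm4 (0.88) and Phtf1 (0.88) over 23 libraries, and for Aqp1 in caput Anxa2 (0.88), Lgals9 (0.87) and Ap2m1 (0.86) over 23.

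Among the testis channels, Aqp8 was closest to Ifitm3 (0.97), Hspb1 (0.97) and Ndufb11 (0.96), Aqp2 to Rpl36a (0.93), Insig1 (0.92) and Gstt1 (0.92), and Aqp7 to Gtf2a2 (0.92), Gsdmcl-ps (0.84) and Gm10057 (0.83). For Aqp5 they were Rnf10, Smarcal1 and St6galnac6, each at 0.82. Within sets these held less evenly: Ifitm3 had r of 0.70 and 0.91 with Aqp8, and Gtf2a2 0.98 and 0.44 with Aqp7, whose own spread over the testes was small (SD 0.10 on the log2 scale). These values describe likeness over the libraries and carry no test.

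The SPF testes of the 2 sets were also compared, since their libraries serve as controls for different groups. Of 6 tested aquaporins 1 was called, a share near the 17.7% of all tested genes, and the groups of 48.4% of all tested genes did not overlap. The called gene was Aqp11, higher in the second set (0.75 ± 0.07, adjusted p = 4.74e-05) without overlap (458 to 491 against 771 to 839 TPM). Aqp8 and Aqp2 were lower in the second set without overlap (-0.52 ± 0.12, adjusted p = 0.00681, and -0.52 ± 0.17, adjusted p = 0.0293), both under the fold needed for a call, while Aqp7 differed by 0.14 ± 0.07. Aqp1 and Aqp3 were under the level filter in this comparison and were not tested, but their ranges did not overlap either. Aqp1 read 1.38 to 1.71 TPM in the first set and 0.11 to 0.95 TPM in the second. Aqp3 was at most 0.53 TPM in the first set and 0.69 to 1.23 TPM in the second. Leaving out SPF testis replicate 1, 2 or 3 of the first set added 1 call each, of Aqp5 (-0.62), Aqp2 (-0.60) or Aqp8 (-0.59). Beside these, the spermatid and sperm transcripts summed to 55790 to 61330 TPM in the first set and 69220 to 80340 TPM in the second, the 4 Sertoli cell transcripts to 570 to 633 TPM and 384 to 507 TPM. Of the tested transcripts of other testis cells, 3 of 4 from Leydig cells, 3 of 5 from endothelium, 3 of 4 from smooth muscle and 3 of 5 from macrophages were called lower in the second set and none higher. The summed level of the 4 Leydig cell transcripts did not follow these calls. It was 3134 to 3849 TPM in the first set and 3660 to 4969 TPM in the second, with overlap. The part of any of these transcripts in the aquaporin differences was not tested. Between the sets limma called none of the 3 tested aquaporins in caput, where 19% of tested genes were called and 2 of the 3 had an unadjusted p under 0.05, or in cauda, where 0.0874% were called and 1 of the 3 had such a p. Comparisons were therefore kept within a set.

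**Figure D3:**
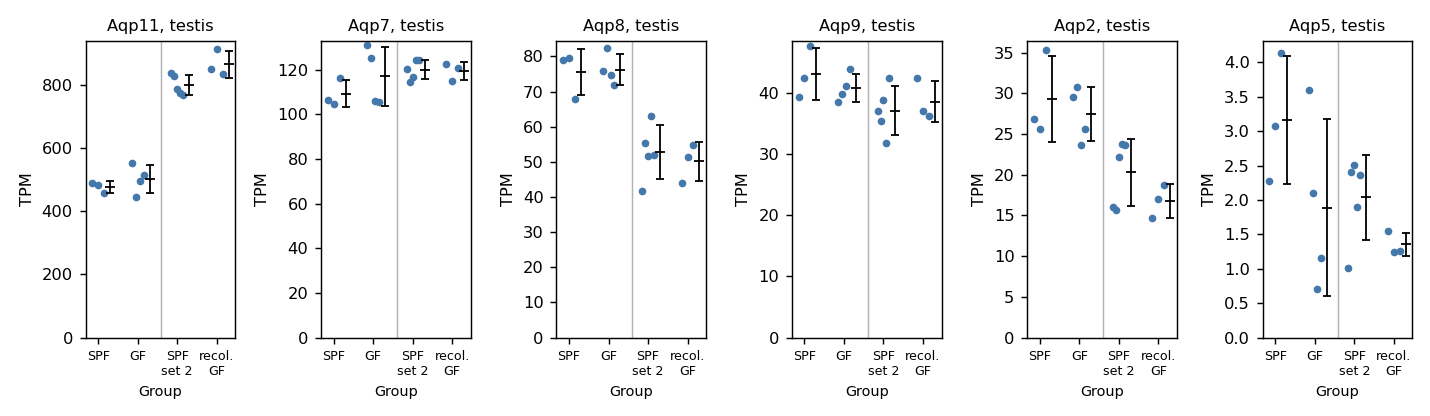
TPM of 6 aquaporins in the testis libraries of SPF, GF, second-set SPF and recolonized GF mice. Each point is 1 library and bars show the mean and SD, with a grey line between the 2 sets. Groups of the same set overlap for all 6 genes, whereas Aqp11 is higher and Aqp8 lower to the right of the line.

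The main question was whether the microbiota, or the lack of T and B cells, went with a different level of any channel. Colony of origin differed along with the microbiota between GF and SPF mice, so these cannot be told apart. In the 10 comparisons of mutant, germ-free, F1 or recolonized mice with SPF mice of the same tissue, limma called no aquaporin in any of 41 tests of members, and 10 of the 41 (24.4%) had an unadjusted p under 0.05, against 18.3% of the tests of all genes in these comparisons. All genes together were called rarely as well: 0.0423% in GF testis, 0.348% in GF caput, 0.144% in GF cauda, 2.72% in F1 caput, 0.188% in F1 cauda, 0.159% in Rag2-/- caput, 0.13% in Rag2-/- cauda, 1.28% in recolonized testis, 0.175% in recolonized caput and 0.323% in recolonized cauda. At the same fold and adjusted p, the study's own count-based test called more genes in each GF and F1 tissue. These low shares therefore belong to this test on TPM and do not measure how far the tissues differ. GF, F1 and Rag2-/- libraries of a segment were all set against the same 4 SPF libraries, so their differences are not independent of each other. A p above the threshold does not show equal levels, and the values and intervals are given for that reason.

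In testis the levels of GF and SPF mice overlapped for all tested members but Aqp1. Aqp11 read 554, 447, 497 and 515 TPM in GF testes (log2 fold change 0.07, 95% interval -0.15 to 0.30). Aqp7 read 131, 125, 106 and 106 TPM, and Aqp8 75.9, 82.3, 74.7 and 71.9 TPM, with differences of 0.10 and 0.02. The widest interval among the main testis channels was that of Aqp2, -0.42 to 0.24.

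Aqp1, near the filter level in testis, read 1.33, 1.03, 0.97 and 1.25 TPM in GF mice, all below the 3 SPF values (-0.24 ± 0.10, adjusted p = 0.364). In that comparison the groups of 13.6% of all tested genes did not overlap. Aqp5 read 3.60, 2.10, 0.70 and 1.16 TPM in GF testes, and its difference of -0.61 ± 0.33 (adjusted p = 0.425) was within the spread of the replicates. The spermatid and sperm transcripts themselves summed to 69900 to 75260 TPM in GF testes, above the 55790 to 61330 TPM of the SPF testes, and their part in these values was not tested. In recolonized GF testes Aqp11 read 850.3, 916 and 836 TPM (0.11, interval -0.06 to 0.29), and every tested member overlapped with the second SPF set, including Aqp3 at 1.12, 0.89 and 1.09 TPM.

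**Figure D4:**
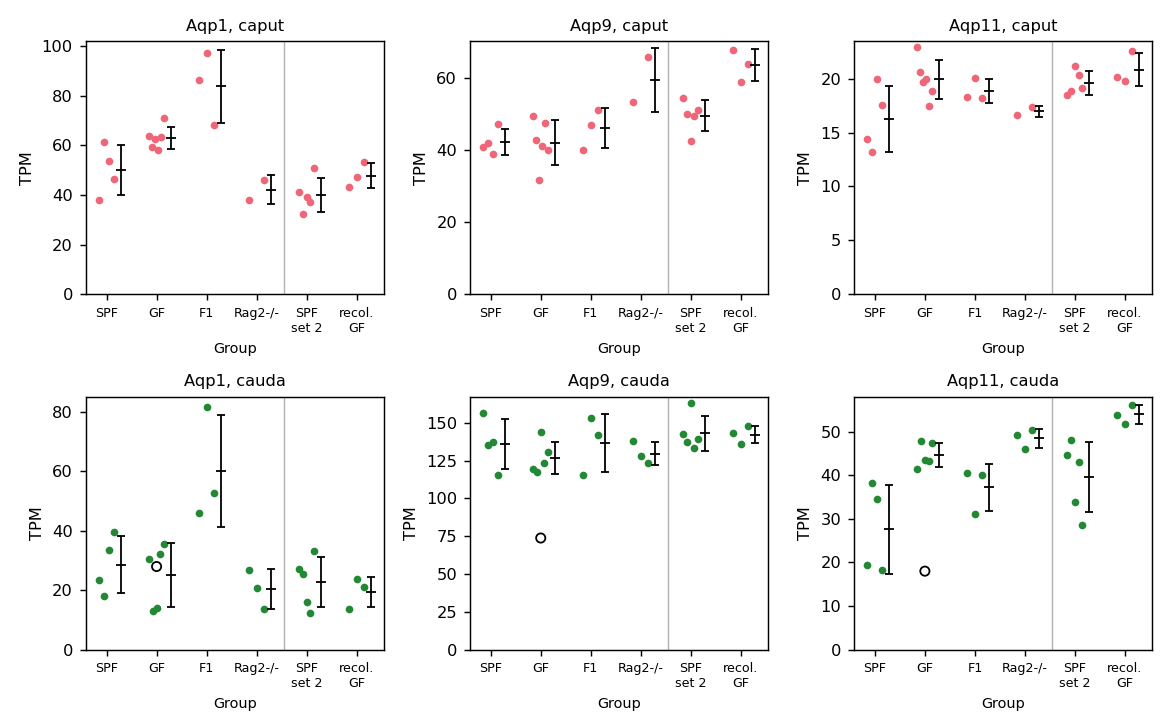
TPM of Aqp1, Aqp9 and Aqp11 in caput (top) and cauda (bottom) by group. Each point is 1 library, bars show the mean and SD, the grey line separates the second SPF set and recolonized GF from the other groups, and the open circle is the swollen GF cauda, left out of the mean. Aqp1 is highest in F1 mice in both segments, and Aqp9 in cauda overlaps between all groups and SPF but for the swollen library at 73.8 TPM.

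In caput, Aqp1 had the largest difference among the 3 tested aquaporins in GF and F1 mice, and Aqp9 in Rag2-/- and recolonized GF mice. Aqp1 ranged from 57.9 to 70.9 TPM with a median of 62.9 in the 6 GF libraries, overlapping SPF only through SPF replicate 2 (0.35 ± 0.12, adjusted p = 0.188). In F1 caput it read 86.3, 97.2 and 68.0 TPM, above all 4 SPF values (0.74 ± 0.18, adjusted p = 0.0532), where 26.8% of all tested genes had groups that did not overlap. When all caput groups entered 1 fit, which shares the estimate of spread, the F1 difference was called (adjusted p = 0.00327), and over its other alternatives the adjusted p lay between 0.0601 and 0.15. Rag2-/- caput read 38.2 and 46.2 TPM and recolonized caput 43.1, 47.3 and 53.1 TPM, and both groups overlapped with their SPF group.

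Cauda of F1 mice was also high in Aqp1, at 45.8, 81.6 and 52.8 TPM against at most 39.6 TPM in SPF (1.06 ± 0.31, adjusted p = 0.12), where 25.1% of tested genes had groups that did not overlap. The median of all genes was 0.28 higher in F1 cauda and 0.11 higher in F1 caput, and after median-of-ratios scaling the Aqp1 differences were 0.71 and 0.61. Transcripts of red cells and endothelium, which are known to carry Aqp1, were higher in F1 mice in both segments. The 4 measured red cell transcripts (of 5 listed) summed to 842 to 1372 TPM in F1 caput and 148 to 266 TPM in SPF caput, and to 545 to 742 TPM in F1 cauda and 41.3 to 142 TPM in SPF cauda. The 5 endothelial transcripts (Pecam1, Cdh5, Kdr, Vwf and Tie1) summed to 51.8 to 52.5 TPM against 33.2 to 48.8 TPM in caput and to 21.4 to 29.7 TPM against 6.92 to 18.1 TPM in cauda, with none of either list at 0 throughout a group. The sum of Slc9a3 and Esr1, listed for efferent ducts, was not higher in F1 caput than in SPF caput. It was 2.75 to 3.19 TPM in F1 and 3.02 to 3.95 TPM in SPF caput, and 8.49 to 18 TPM in F1 and 3.18 to 8.28 TPM in SPF cauda. In SPF mice the median of this sum was higher in cauda (5.875 TPM) than in caput (3.675 TPM), so the pair was not taken to mark efferent ducts. Other lists also moved between F1 and SPF mice. The 5 measured macrophage transcripts summed to 373.9 to 394 TPM in F1 and 269.8 to 311.7 TPM in SPF caput. In cauda they summed to 298 to 317.3 TPM in F1 and 105.1 to 242.1 TPM in SPF. The 5 caput epithelial transcripts were lower in F1 caput, at 69440 to 76790 TPM against 76910 to 92660 TPM. The part of any of these transcripts in the Aqp1 difference was not tested.

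GF caput, which overlapped SPF in Aqp1 only through SPF replicate 2, had red cell transcripts of 414 to 775 TPM, above all SPF caput libraries. Its endothelial transcripts summed to 39.0 to 45.0 TPM. The part of either list in the Aqp1 values of GF caput was not tested. In GF cauda Aqp1 read 30.4, 13.0, 14.1, 32.2 and 35.6 TPM without the swollen library (-0.24, interval -1.02 to 0.54). In Rag2-/- cauda it read 26.7, 20.8 and 13.5 TPM and in recolonized cauda 13.7, 23.6 and 20.9 TPM, both overlapping SPF. Aqp1 also varied within SPF cauda, with an SD of 9.69 TPM on a mean of 28.6 TPM, whereas Aqp9 had an SD of 16.7 TPM on a mean of 136 TPM.

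Aqp9 in cauda overlapped between all groups and SPF. GF cauda read 119, 117, 144, 124 and 131 TPM (-0.10, 95% interval -0.37 to 0.18), F1 cauda 116, 153 and 142 TPM (0.01, -0.39 to 0.40), Rag2-/- cauda 138, 128 and 123 TPM (-0.06, -0.43 to 0.30) and recolonized cauda 143, 136 and 148 TPM (-0.01, -0.24 to 0.23). The direction of the F1, Rag2-/- and recolonized differences changed with the scaling or with single libraries. The swollen GF cauda stood apart at 73.8 TPM, below every other cauda library, beside 4053 TPM of 5 measured macrophage transcripts against at most 1190 TPM in the other GF caudae and 242 TPM in SPF caudae.

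In caput, Aqp9 read 53.2 and 65.6 TPM in Rag2-/- mice, above all 4 SPF values (0.48 ± 0.13, adjusted p = 0.181), and 67.6, 58.8 and 63.9 TPM in recolonized GF mice, above all 5 values of the second SPF set (42.6 to 54.4 TPM, 0.36 ± 0.10, adjusted p = 0.294). Groups did not overlap for 29.7% and 5.95% of all tested genes in these comparisons, and neither change reached 1.5-fold. Beside them, Adam7 and Crisp4, transcripts of the epididymal epithelium, summed to 1163 and 1384 TPM in Rag2-/- against 887 to 1096 TPM in SPF caput, and to 1198 to 2095 TPM in recolonized GF against 1274 to 1787 TPM. Their part in the Aqp9 values was not tested. In GF caput Aqp9 ranged from 31.6 to 49.4 TPM with a median of 41.8 and in F1 caput it read 40.1, 46.8 and 51.0 TPM, both overlapping SPF.

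Aqp11 averaged higher in GF, F1, Rag2-/- and recolonized cauda than in SPF cauda, with no difference past the threshold when each group was tested against its own SPF group. GF cauda read 41.4, 48.0, 43.5, 43.3 and 47.4 TPM, all above the 4 SPF values of 18.4 to 38.2 TPM (0.75 ± 0.22, adjusted p = 0.178). Rag2-/- cauda read 49.2, 46.0 and 50.3 TPM (0.86 ± 0.28, adjusted p = 0.358), and recolonized cauda read 53.9, 51.9 and 56.2 TPM against 28.6 to 48.1 TPM in the second SPF set (0.46 ± 0.17, adjusted p = 0.246), neither with overlap. F1 cauda read 40.6, 31.1 and 40.1 TPM and overlapped SPF (0.48 ± 0.30, adjusted p = 0.352). Groups did not overlap for 7.56%, 13.2% and 13.3% of all tested genes in GF, Rag2-/- and recolonized cauda.

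With all cauda groups in 1 fit the Aqp11 differences of GF (adjusted p = 0.027) and Rag2-/- (adjusted p = 0.0373) were called, and that of recolonized GF was not (adjusted p = 0.546). That fit raised calls over all genes as well, from 18 to 413 in GF cauda and from 16 to 256 in Rag2-/- cauda. Over the other alternatives that left out at most 1 library the adjusted p of the GF difference lay between 0.0978 and 0.469. Beside these differences, the spermatid and sperm transcripts summed to 1231 to 1713 TPM in GF, 1648 to 3116 TPM in Rag2-/- and 933 to 1561 TPM in F1 cauda, against 33.9 to 1446 TPM in SPF cauda, and to 1287 to 2985 TPM in recolonized GF against 741 to 2259 TPM in the second SPF set. The GF and SPF ranges of these transcripts overlapped through SPF replicate 2. Other lists also moved between GF and SPF cauda. Slc9a3 and Esr1 summed to 8.42 to 9.69 TPM in GF against 3.18 to 8.28 TPM in SPF, and the 4 measured neutrophil transcripts to 26.8 to 84.1 TPM against 129 to 1410 TPM, both without overlap. The 5 measured macrophage transcripts summed to 177 to 1190 TPM against 105 to 242 TPM. The part of any of these in the Aqp11 values was not tested. The swollen GF cauda read 18 TPM of Aqp11 with 888 TPM of these transcripts.

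**Figure D5:**
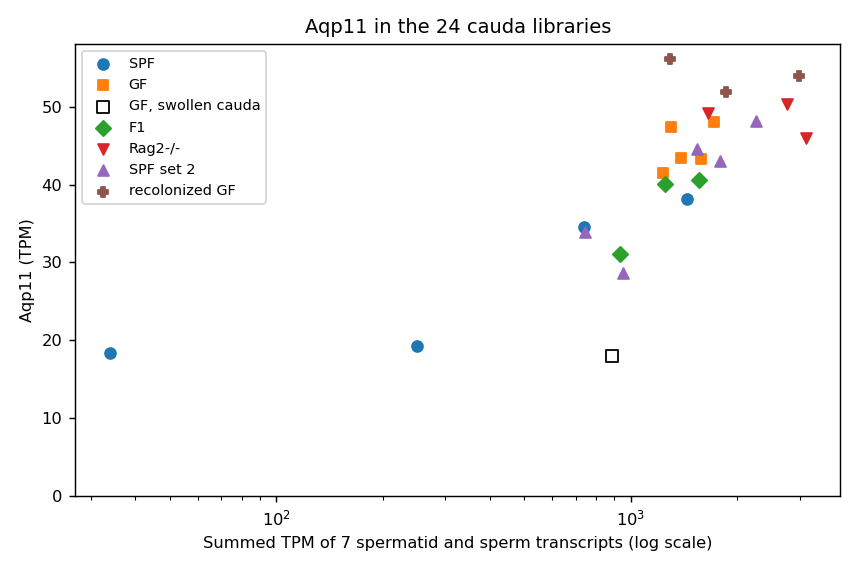
Aqp11 in TPM against the summed TPM of 7 spermatid and sperm transcripts (log scale) in the 24 cauda libraries, each point 1 library, with symbols for groups and an open square for the swollen GF cauda. The SPF libraries with 33.9 and 249.6 TPM of these transcripts are at 18.4 and 19.3 TPM of Aqp11.

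In caput Aqp11 stayed between 13.2 and 23.0 TPM over the 23 libraries. It ranged from 17.5 to 23.0 TPM in GF with a median of 19.8 (0.29 ± 0.12, adjusted p = 0.245) and read 18.3, 20.1 and 18.2 TPM in F1 and 16.6 and 17.3 TPM in Rag2-/- caput. Recolonized caput read 20.2, 19.7 and 22.6 TPM against 18.5 to 21.2 TPM. Whether an effect differed between cauda and caput was tested directly as an interaction, and none of the 3 aquaporins that could be tested was called for GF, F1, Rag2-/- or recolonized mice, where 0.0881%, 0.164%, 0.12% and 0.131% of all genes were. Of these 12 interaction tests by limma, 2 had an unadjusted p under 0.05, those of Aqp9 in Rag2-/- (-0.54 ± 0.20, adjusted p = 0.413) and in recolonized GF mice (-0.36 ± 0.13, adjusted p = 0.251). The cauda minus caput differences of the Aqp11 effect were 0.46 ± 0.25 in GF (adjusted p = 0.498), 0.27 ± 0.34 in F1 (adjusted p = 0.827), 0.79 ± 0.37 in Rag2-/- (adjusted p = 0.518) and 0.38 ± 0.19 in recolonized GF mice (adjusted p = 0.377).

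Aqp5 was the only remaining member to reach 1 TPM on average in an epididymal comparison. It read 1.82, 2.53, 5.07, 1.09 and 0.91 TPM in GF cauda against 1.09 to 1.31 TPM in SPF cauda (0.45 ± 0.30, adjusted p = 0.527), so that its GF values lay on both sides of the SPF range. Rag2-/- cauda read 0.58, 2.27 and 0.16 TPM and F1 cauda 0.48, 0.44 and 1.45 TPM. Aqp2, Aqp3, Aqp4, Aqp7 and Aqp8 were not tested in caput or cauda, where each averaged under 1 TPM.

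Other genes of fluid and glycerol handling gave the setting of these channels. No member of a list of 16 ion transporters and channels that drive fluid movement, nor of 9 enzymes that make, use or release glycerol (Gk is held as Gyk), was called in any of the 10 group comparisons, and Mip, Aqp6 and Aqp12 never reached a mean of 1 TPM in a comparison. By limma, 29 of 121 tests of transport genes and 15 of 72 of glycerol genes had an unadjusted p under 0.05, against 18.3% of the tests of all genes. Of 10 to 13 transport genes and 7 to 8 glycerol genes tested in each, the largest median log2 fold change was that of 13 transport genes in F1 cauda, 0.45, where the median of all genes was 0.28. Between cauda and caput in the first SPF set, where 39.4% of all tested genes were called, 3 of 14 tested transport genes were higher and 5 lower. Slc9a3r1, the scaffold that tethers the exchanger Slc9a3, rose from 94.9 to 849 TPM (3.14 ± 0.12, adjusted p = 6.8e-08). In the second set, where 50.3% were called, 4 were higher and 6 lower, with Slc9a3r1 at 3.01.

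Of the glycerol list, 1 of 7 tested genes was higher in cauda and 1 lower in the first set, Mgll at 0.84 and Gpd1 at -1.26, and 1 higher and 3 lower in the second, led by Gpd1 at -1.78 and Pnpla2 at -0.67. Testis, the site of Aqp7, had the germ cell glycerol kinases at high levels: Gk2 averaged 454.5 TPM and Gykl1 258 TPM against 0.23 and 0.13 TPM in caput (8.55 and 7.85). Both passed the level filter only through testis and so had to differ. In all, where 80.2% and 77.5% of all tested genes were called against caput and cauda in the first set and 79.4% and 78.7% in the second, 6 of 9 tested glycerol genes were higher and 3 lower in testis than in caput and 5 higher and 2 lower of 9 than in cauda in the first set, and 5 and 3 and 5 and 2 in the second, where Gk2 and Gykl1 were at 7.90 and 7.93 against caput. Of the transport list, 4 of 12 tested were higher in testis than in caput and 4 lower, led by Scnn1a, a subunit of the epithelial sodium channel (-5.56), and Atp1b3, a subunit of the sodium pump (2.93). Against cauda 6 of 13 were higher and 5 lower, led by Scnn1a (-5.16) and Slc9a3r1 (-4.14), in the second set 2 of 12 higher and 6 lower against caput (Scnn1a -5.83, Atp1b3 2.66) and 5 of 13 higher and 6 lower against cauda (Scnn1a -5.04, Slc9a3r1 -4.09).

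Between the SPF sets, 5 of 13 tested transport genes and 3 of 7 glycerol genes were higher in caput of the second set and none lower, led by Cftr (0.96), Slc4a4 (0.80), Gyk (0.85) and Mgll (0.72), where 19% of all tested genes were called and the median of all genes was 0.18 higher. In testis, where 17.7% were called, 2 of 10 transport genes were higher and 1 lower, and none of 8 glycerol genes was called by limma, 6 of them with an unadjusted p under 0.05. Of all tested genes, 57.3% had such a p by limma there.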

How the data were processed

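PolyA-selected RNA of testis, caput and cauda was sequenced, and the authors aligned reads to mm10, quantified them with RSEM (version not given in the sources used here) and deposited TPM for 23845 genes. TPM hold no counts, so the depth of a library is unknown and precision was judged from replicates alone. Groups came from the labels, and per the study's methods each library is tissue of 1 animal. Values were fitted as log2(TPM + 1) in limma 3.58.1 (R 4.3.3), leaving out genes averaging below 1 TPM, with Benjamini-Hochberg adjustment over every gene fitted. Calls needed an adjusted p no greater than 0.05 together with a fold no smaller than 1.5. The fit was tested on simulated data. All 9 aquaporins are described, in full those with at least 1 TPM in an SPF tissue, with their 3 most alike genes and, from each list, the 2 called members with the largest changes, except some that are not reported here. Members and lists were chosen with earlier results of these data known. Alternatives were a pseudocount of 0.1, no level filter, median-of-ratios scaling, all groups of a tissue in 1 fit, a replicate block, leaving out each replicate and adding the swollen cauda. Leaving out SPF cauda replicates 1 and 4 together was added after the data were seen, and since these are also the lowest in Aqp11 no Aqp11 value is drawn from it. Promoters are from RefSeq (GRCm38.p6, the coordinates of mm10). No 2 libraries held identical values.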

Additional observations from a re-analysis of the deposited data

Results flagged for a closer look

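In the swollen GF cauda, which entered no comparison, Aqp5 read 2.86 TPM, above the highest SPF cauda library at 1.31 TPM, and within the range of the other GF caudae (0.91 to 5.07 TPM). No library lay apart from its group by Dixon's criterion in the 33 groups of 4 to 10 libraries with a mean of at least 1 TPM that were checked, where chance would flag about 1 in 20. None of the 12 interaction tests of an aquaporin between cauda and caput was called by limma, and 2 had an unadjusted p under 0.05. Between 9.61% and 14.5% of all genes had such a p in these interactions.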

How the results depend on the processing

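TPM keep no read counts, so differences of genes near 1 TPM cannot be weighed against counting error, and 2 to 6 libraries a group limit what a comparison can call. The number of aquaporins called changed under few alternatives. With all groups of a tissue in 1 fit it was 1 in place of 0 in GF cauda, F1 caput and Rag2-/- cauda (Aqp11, Aqp1 and Aqp11), beside all-gene calls of 413 in GF cauda and 256 in Rag2-/- cauda. Leaving out 1 replicate gave 1 to 3 calls between cauda and caput of the first SPF set (as reported 2) and 1 to 2 between the SPF testis sets (as reported 1). The latter count was 3 with no level filter and 3 with the replicate block. Elsewhere it stayed within 1.5 times. Aqp11 in GF cauda was 0.54 with the swollen library.

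Some uncalled differences changed direction, and the cause was not tested. Values as reported stand in parentheses. Median-of-ratios scaling gave 0.02 for Aqp2 in GF testis (-0.086), 0.033 for Aqp9 in GF testis (-0.074), 0.018 for Aqp9 in GF caput (-0.017), -0.014 for Aqp9 in F1 caput (0.12), -0.35 for Aqp9 in F1 cauda (0.006), 0.18 for Aqp7 in recolonized testis (-0.008), 0.12 for Aqp8 in recolonized testis (-0.066), 0.013 for Aqp9 in recolonized cauda (-0.005), -0.58 for Aqp9 in testis against caput of the first SPF set (0.032), -0.011 for Aqp9 in the SPF caput sets (0.22) and -0.043 for Aqp9 in the SPF cauda sets (0.076). Leaving out 1 replicate gave ranges of -0.45 to 0.014 for Aqp1 in the Rag2-/- interaction (-0.24), -0.36 to 0.049 for Aqp1 in recolonized cauda (-0.17), -0.017 to 0.17 for Aqp11 in Rag2-/- caput (0.073), -0.17 to 0.053 for Aqp2 in GF testis (-0.086), -0.012 to 0.095 for Aqp3 in recolonized testis (0.044), -0.30 to 0.049 for Aqp5 in Rag2-/- cauda (-0.28), -0.028 to 0.019 for Aqp7 in recolonized testis (-0.008), -0.059 to 0.054 for Aqp8 in GF testis (0.015), -0.14 to 0.022 for Aqp8 in recolonized testis (-0.066), -0.20 to 0.005 for Aqp9 in the F1 interaction (-0.11), -0.079 to 0.12 for Aqp9 in F1 cauda (0.006), -0.065 to 0.06 for Aqp9 in GF caput (-0.017), -0.14 to 0.006 for Aqp9 in Rag2-/- cauda (-0.063), 0.000 to 0.14 for Aqp9 in the SPF cauda sets (0.076), -0.032 to 0.043 for Aqp9 in recolonized cauda (-0.005), -0.01 to 0.11 for Aqp9 in recolonized testis (0.058) and -0.041 to 0.096 for Aqp9 in testis against caput of the first SPF set (0.032). The replicate block gave -0.069 for Aqp9 in F1 cauda (0.006), 0.025 for Aqp7 in recolonized testis (-0.008) and 0.019 for Aqp8 in recolonized testis (-0.066), and leaving out SPF cauda replicates 1 and 4 gave -0.004 for Aqp9 in F1 cauda. No called difference changed direction.

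Replicate numbers did not pair libraries: in no comparison did every pair of the same number correlate above 0.1 in its deviations from the group means, and every library correlated best with its own number in recolonized caput alone among comparisons with 3 or more pairs. With the replicate block Aqp11 in GF cauda was 0.57 (adjusted p = 0.21), and no aquaporin was called in the group comparisons. All-gene calls with the block were 0 in GF testis, F1 caput and F1 cauda and 265 in GF cauda. Over all alternatives the number of genes called ranged from 0 to 26 in GF testis (as reported 6), 8 to 69 in GF caput (as reported 41), 2 to 413 in GF cauda (as reported 18), 0 to 704 in F1 caput (as reported 328), 0 to 1390 in F1 cauda (as reported 24), 6 to 63 in Rag2-/- caput (as reported 19), 2 to 256 in Rag2-/- cauda (as reported 16), 1 to 789 in recolonized testis (as reported 183), 4 to 43 in recolonized caput (as reported 22), 5 to 62 in recolonized cauda (as reported 41), 5 to 2235 in the SPF cauda sets (as reported 11), 1 to 309 in the GF interaction (as reported 11), 2 to 78 in the F1 interaction (as reported 21), 0 to 115 in the Rag2-/- interaction (as reported 15) and 1 to 138 in the recolonized interaction (as reported 17), and stayed within 1.5 times in the 6 tissue comparisons and between the SPF sets of testis and caput.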

Other observations

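The swollen GF cauda held 124 TPM of summed aquaporin transcripts, less than any compared cauda library. Aqp9 made up 59.4% of it and Aqp1 22.5%. Aqp6, another member of the family, was at most 1.5 TPM in the caudae of both SPF sets and reached 3.76 TPM in GF cauda replicate 3. Aqp2 averaged 16.8 TPM in recolonized GF testis and Aqp5 1.35 TPM, the lowest group means of both genes in that tissue.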
